A study of Gallus gallus with 6 samples.

Results

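Solute carriers and ABC transporters were followed as a family of membrane proteins in chicken macrophages exposed to bacteria or to bacterial lipopolysaccharide (LPS, the glycolipid of the Gram-negative outer membrane). Members were all named genes of the array with a symbol that begins with SLC, ABCA, ABCB, ABCC, ABCD, ABCG or SFXN, apart from SLC16A1, ABCA1 and spots with several genes. This gave 39 of the 2253 named genes on the array, carried by 51 cDNA clones and 153 spots, and all 39 were read on every array. Grouped by family, 10 members belong to families of amino acid carriers, 8 to those of sugars and nucleotide sugars, 5 of metals, 4 of mitochondrial substrates (the sideroflexin SFXN1 included), 3 of ions, 3 of nucleosides and organic ions, and 1 of peptides and histidine, and 4 are ABC transporters. A family does not fix the substrate of each member: SLC43A3, in a family of amino acid carriers, is known in mammals as a purine nucleobase carrier. SLC9A3R1 codes for a scaffold protein that binds membrane transporters and carries nothing itself, although the choice by symbol takes it in.

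The cells were macrophages derived from peripheral blood of chickens, labelled as avian peripheral blood lymphocyte macrophage. The sources used here state neither strain nor age nor number of birds. Cells stayed unstimulated or met whole bacteria (E. coli, strain XL10) or LPS from S. typh, and for the times after 2 h the stimulus had been withdrawn at 2 h. Each of 5 arrays compared a pair of RNA samples, named here by channel 1 and then channel 2 of the labels: bacteria at 1 h and no stimulus (the E. coli 1 h array), no stimulus and LPS at 1 h (the LPS 1 h array), bacteria at 2 h and at 4 h (called the within-E. coli array, in the plots the array of E. coli at 2 h and 4 h), and bacteria and LPS at 4 h (the 4 h array) and at 8 h (the 8 h array). A ratio given at 4 h or at 8 h is from these last arrays. The first and second arrays share the unstimulated state, and the within-E. coli and 4 h arrays share E. coli at 4 h. A sixth array gave the intensity of LPS 2 h alone.

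Solute carriers move amino acids, sugars, metals, nucleosides and ions down gradients or coupled to a second ion, while ABC transporters spend ATP to move lipids, drugs and conjugates out of the cell or into organelles. In macrophages these proteins set the supply of arginine for nitric oxide synthesis, of glutamine and cystine for growth and redox defence, and of iron and copper, which are withheld from or turned against ingested bacteria. Mitochondrial carriers of the SLC25 family exchange ATP, ADP and phosphate across the inner membrane, and carriers of the SLC35 family bring nucleotide sugars into the Golgi for glycosylation.

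Ratios are log2 values centred on the median of each array, with base 2 assumed, and the sign is as deposited, because neither the dyes nor the numerator were stated. If an array ran the other way, all its signs would turn. Each comparison had 1 array, so conditions were not tested, and the error given is an SD among spots on 1 array, a technical spread. The median SD over the members was 0.31 on the E. coli 1 h array, 0.29 on the LPS 1 h array, 0.69 on the within-E. coli array, 0.73 at 4 h and 0.80 at 8 h. As a reference for sign, of 11 early inflammatory genes such as IL1B and CCL5, 8 were at least 2-fold positive and 0 negative on the E. coli 1 h array, 11 were negative on the LPS 1 h array, and 7 were positive at 4 h and 4 at 8 h. On the within-E. coli array 4 of them were negative and 0 positive past 2-fold, and all 11 lay below 0, with a median of -0.79. Of 12 macrophage markers read, 10 had an LPS 2 h intensity above the median gene's 0.509, with CTSS at 4.32 and CSF1R at 2.75. Of the markers of other cells that were on the array, the T cell gene CD3D had 5.40 and the heterophil-list gene AVD 4.17, while CD28, BTK, CSF3R and the globins HBBA and HBA1 lay between 0.111 and 0.489. In such bulk RNA, fewer cells of a type and less RNA per cell cannot be told apart.

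On the E. coli 1 h array 13 of the 39 members were at least 2-fold from the array's median, 12 positive and 1 negative, where 16.3% of all 2251 genes read were past 2-fold, 14.7% positive and 1.51% negative. On the LPS 1 h array 2 members were past 2-fold, 1 of each sign, against 11.2% of all genes. The within-E. coli array had 12, of which 11 were positive and 1 negative, against 23.1% of all genes, 14.8% positive and 8.3% negative. The 4 h array had 16, of which 9 were positive and 7 negative, against 29.4%, 17.7% positive and 11.7% negative, and the 8 h array had 11, of which 5 were positive and 6 negative, against 27.9%, 15% positive and 12.9% negative. Past 2-fold with at least 2 spots, all of 1 sign, were 11 members on the E. coli 1 h array, where 14% of all genes were, and 2 on the LPS 1 h array, where 9.06% were. The within-E. coli array had 10 such members against 18.7% of all genes, the 4 h array 12 against 23.4%, and the 8 h array 8 against 20.1%. The median of the members was 0.30 on the E. coli 1 h array and 0.19 on the LPS 1 h array, beside -0.01 and 0.05 over all genes. It was 0.19 on the within-E. coli array, -0.20 at 4 h and -0.16 at 8 h, beside 0.04, 0.00 and 0.01. Within 2-fold on all 5 arrays were 9 of the 39 members, against 40.6% of all genes, and 2 members, SLC38A2 and SLC43A3, were past it on 4, against 3.91% of all genes. These counts moved with the brightness of the spots. With the median trend of ratio on brightness removed, the 4 h array had 10 members past 2-fold, 4 positive and 6 negative, and 5 of these were among the 16. The median of the members was then 0.13 on the E. coli 1 h array and 0.09 on the LPS 1 h array, and it was 0.11 on the former as a median over spots.

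**Figure D1:**
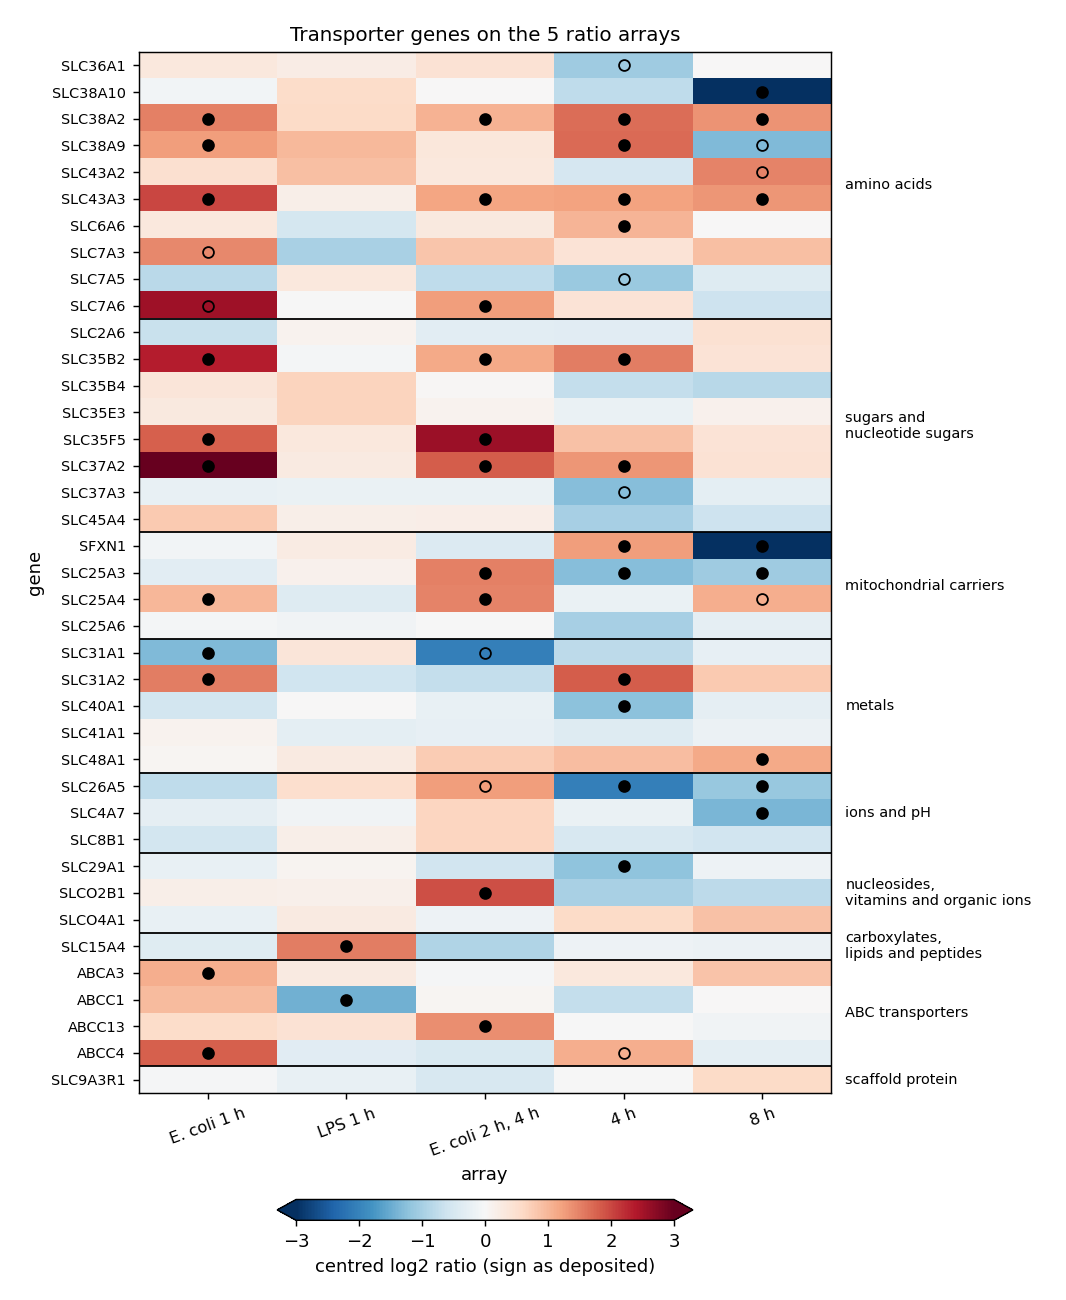
Centred log2 ratio (colour, sign as deposited) of each of the 39 genes (rows, grouped by family) on the 5 ratio arrays (columns). Filled circles mark ratios past 2-fold with at least 2 spots, all of 1 sign, and open circles those past 2-fold with mixed spots or a single spot. The LPS 1 h column holds 2 circles and the 4 h column 16.

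Brightness moved with these ratios. Of the 39 members 14, or 35.9%, were among the dimmest 25% of genes by LPS 2 h intensity. On the E. coli 1 h array 8 of these 14 were past 2-fold positive and 1 negative, with a median of 1.13, whereas 4 of the other 25 were positive and 0 negative, with a median of -0.05. Of all genes in the dimmest 25%, 37.5% were past 2-fold positive and 3.2% negative, with a median of 0.62, and of the other genes 7.16% and 0.947%, with a median of -0.11. At 4 h 7 of the 14 dim members were positive and 0 negative, and of the other 25 members 2 were positive and 7 negative. Dim and bright members thus lay on opposite sides of that array, as did all genes, with 41.8% positive and 4.48% negative of the dimmest 25% and 9.7% positive and 14.1% negative of the others. The median trend of ratio on LPS 2 h intensity over all spots was removed, and the ratio that remained is given beside the leading members. This intensity is from 1 array of stimulated cells, on which IL1B, for example, had 10.7. Removing the trend can thus take out expression differences too, and a technical part of brightness was not measured.

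**Figure D2:**
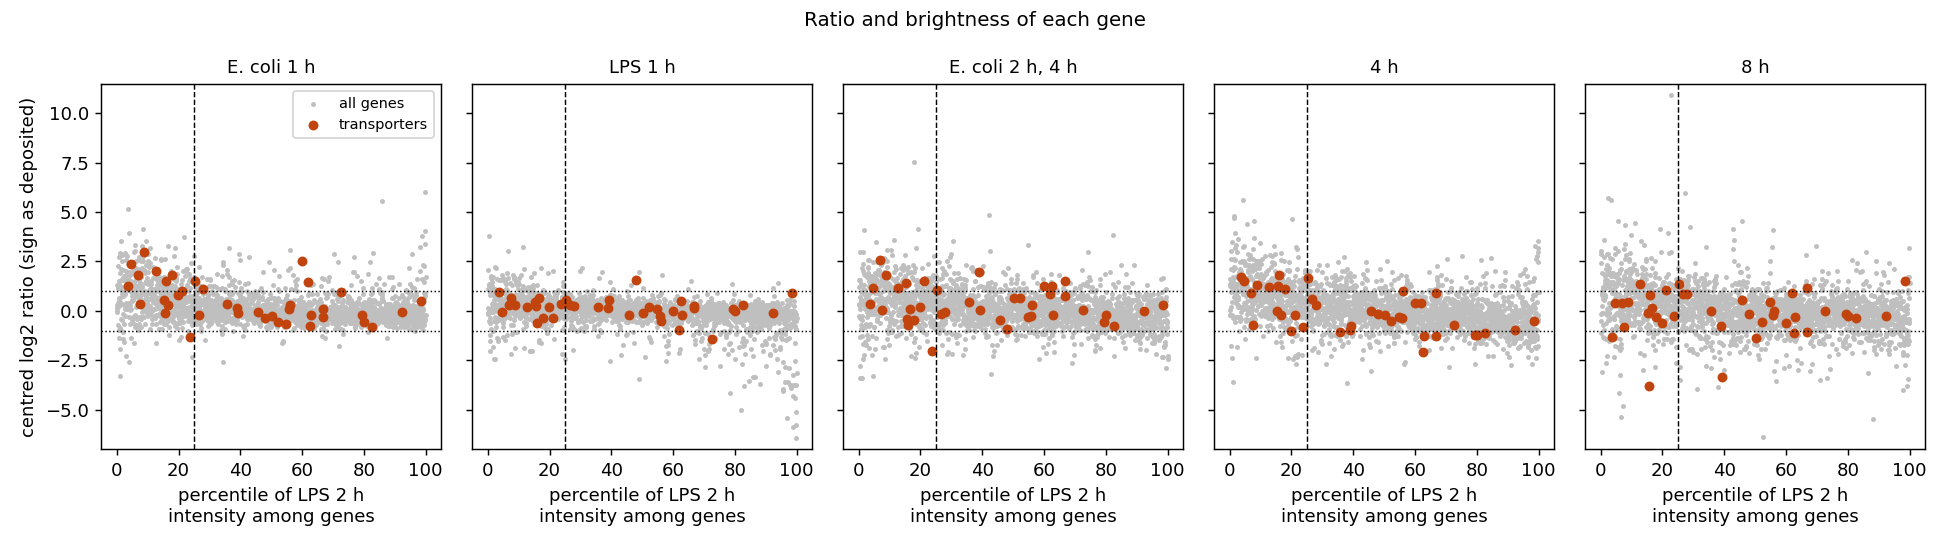
Centred log2 ratio (y, sign as deposited) of every gene against its percentile of LPS 2 h intensity (x), 1 panel per ratio array, with transporters in colour over all genes in grey. Dotted lines mark 2-fold and the dashed line the dimmest 25%. On the E. coli 1 h and 4 h arrays the 14 transporters left of the dashed line have medians of 1.13 and 0.99.

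Of the amino acid carriers, 10 genes, 5 were positive and 0 negative past 2-fold with E. coli at 1 h, against 14.7% and 1.51% of all genes. Their median was 0.87, or 0.44 without the trend. None was past 2-fold with LPS at 1 h, against 11.2% of all genes, and the median of the carriers was 0.27. The 5 include SLC43A3, and SLC7A6, which was past 2-fold through 1 spot and had a median over spots of -0.29. SLC7A3, a cationic amino acid transporter that brings arginine, lysine and ornithine into the cell, was the member with most clones, 5, and 15 spots. With E. coli at 1 h its spots ran from -0.06 over a median of 1.38 to 3.03, and 14 of 15 were above 0, with a gene ratio of 1.45 ± 0.97. On the LPS 1 h array they ran from -1.89 over -0.80 to 0.56, and 14 of 15 were below 0, with a ratio of -0.98 ± 0.73. All 5 clones had this pair of signs. Their means were 0.45, 2.13, 1.28, 2.56 and 0.85 on the E. coli 1 h array and -0.56, -0.87, -1.67, -0.26 and -1.53 on the LPS 1 h array. These arrays share the unstimulated state, and the signs are those of the inflammatory cytokine gene IL1B, at 3.38 and -5.10. SLC7A3 was of middle brightness, at percentile 62.0, and without the trend had 1.56 and -0.97. Later it stood at 0.83 ± 1.19 on the within-E. coli array, 0.40 ± 0.79 at 4 h and 0.90 ± 0.55 at 8 h, where 14 of 15 spots were above 0.

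**Figure D3:**
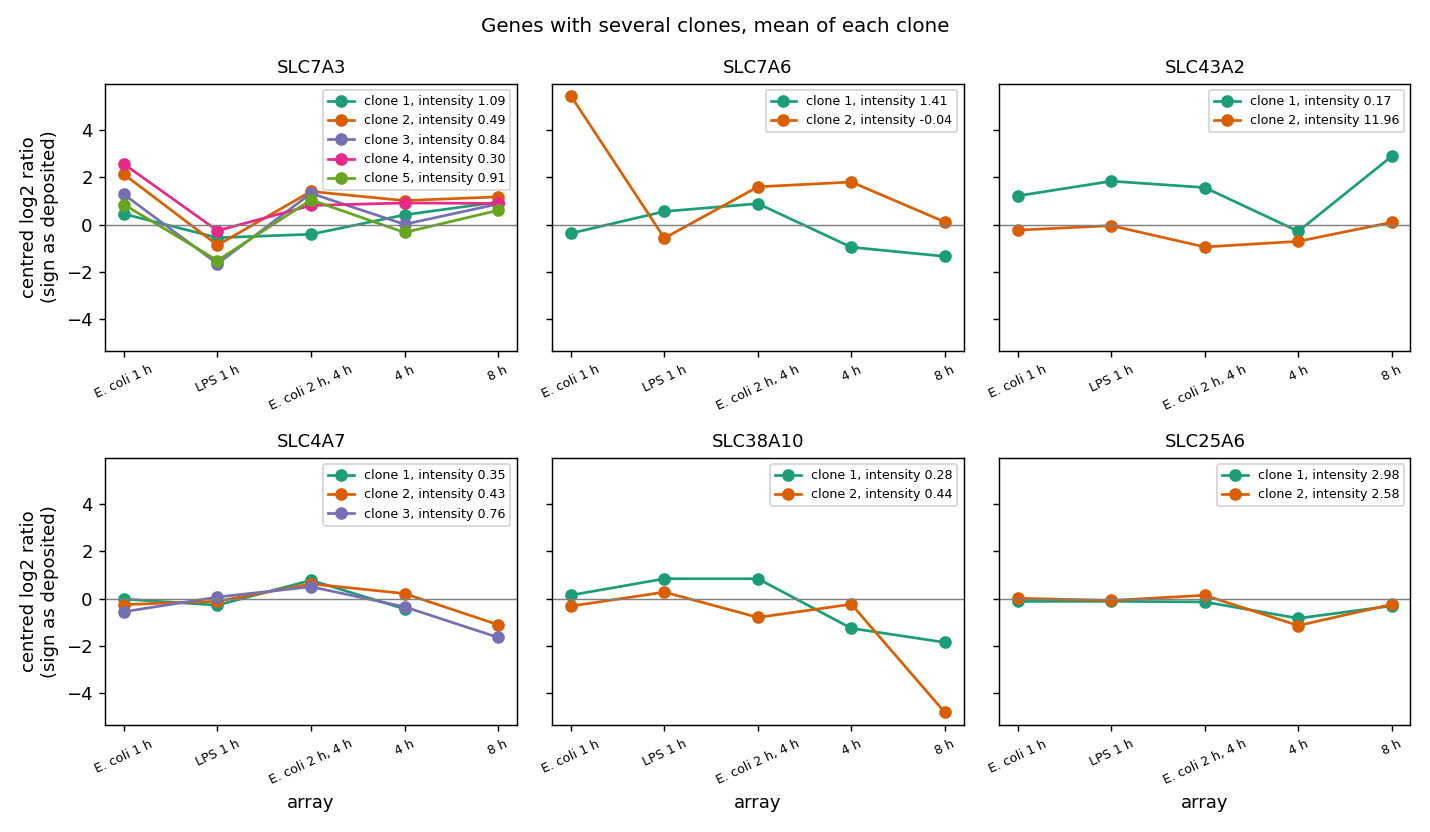
Mean centred log2 ratio (y, sign as deposited) of each cDNA clone on the 5 ratio arrays (x) for 6 genes with several clones, with the clone's LPS 2 h intensity in the legend. The 5 clones of SLC7A3 lie above 0 on the E. coli 1 h array and below 0 on the LPS 1 h array, while the clones of SLC7A6 and SLC43A2 part by 5.47 against -0.37 on the first array and 2.90 against 0.09 at 8 h.

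The sodium-coupled glutamine carrier SLC38A2 and the SLC43 family member SLC43A3 had positive ratios on all 5 arrays, though on the LPS 1 h array the spots of each disagreed in sign. By the channels of the labels, the stimulus is channel 1 on the E. coli 1 h array and channel 2 on the LPS 1 h array. If both have the same channel as numerator, which is not stated, 1 sign on both is not 1 direction of response. The early inflammatory genes had opposite signs on these arrays. The dimmest 25% of genes also had positive medians on every array, of 0.62, 0.27, 0.55, 0.80 and 0.54 in the order of the plots. SLC38A2 had spots of 1.24, 2.19 and 1.12 on the E. coli 1 h array, 1.92, 1.19 and 1.88 at 4 h and 0.52, 1.34 and 2.19 at 8 h. Its ratios there were 1.52 ± 0.58, 1.67 ± 0.41 and 1.35 ± 0.84, with 1.05 ± 0.12 on the within-E. coli array and 0.57 ± 0.80 on the LPS 1 h array. SLC43A3 had 1.99 ± 0.18 on the E. coli 1 h array, 1.18 ± 0.07 on the within-E. coli array, 1.21 ± 0.57 at 4 h, 1.33 ± 0.74 at 8 h and 0.19 ± 0.25 on the LPS 1 h array. The clone of SLC43A3 was among the dimmest 25%, at percentile 12.8, and that of SLC38A2 lay just outside them, at percentile 25.3. Without the trend SLC38A2 kept 1.12 on the E. coli 1 h array and 1.14 at 4 h and had 0.96 at 8 h, and SLC43A3 kept 1.28 on the E. coli 1 h array and had 0.29 at 4 h and 0.67 at 8 h. Their ratios on the within-E. coli array came to 0.68 and 0.55.

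SLC38A9, the lysosomal arginine sensor that signals to mTORC1, had 1.25 ± 0.19 on the E. coli 1 h array and 1.70 ± 1.36 at 4 h, and -1.32 on a single spot of the 8 h array. Its clone was among the dimmest of the members, at percentile 3.60, and without the trend the positive ratios were 0.42 and 0.48. SLC38A10, another member of that family, lay within 2-fold except at 8 h. There it had -3.35 as the mean of its 2 clone means, with an SD of 2.08 over 4 spots. The spots of SLC38A10 were -4.84, -1.20, -3.88 and -0.50, with a median of -2.54. Both its clones were negative there, at -1.86 and -4.84, the second on 1 spot. Spots of this gene thus shared the sign at 8 h but not the size.

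SLC7A5 and SLC7A6 are light chains that pair with the heavy chain SLC3A2 to exchange amino acids. SLC7A5, the carrier of leucine and other large neutral amino acids, had spots of -0.92, -0.84 and -0.68 with E. coli at 1 h and of 0.16, 0.41 and 0.39 on the LPS 1 h array. Its ratios of -0.81 ± 0.12 and 0.32 ± 0.14 were within 2-fold, but larger than their SD and of opposite sign to those of SLC7A3. SLC7A5 was bright, at percentile 82.6, and had -0.62 on the E. coli 1 h array without the trend. Of the 12 macrophage markers 9 were below 0 and 3 above on that array, with a median of -0.40. At 4 h SLC7A5 had -1.10 ± 1.16, with spots of -2.07, -1.42 and 0.18. SLC7A6 had 2.55 ± 2.92 on the E. coli 1 h array, an average of clones that disagreed. One clone, whose intensity was -0.04, had 5.47 on 1 spot, and the other, at intensity 1.41, had -0.37 over 3 spots, so the gene's median over spots was -0.29. On the within-E. coli array its clones had 1.60 and 0.89, and all 5 spots were positive, with a ratio of 1.24 ± 0.92.

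SLC43A2, a carrier of large neutral amino acids, also split by clone. The clone with an LPS 2 h intensity of 12.0 had -0.24 on the E. coli 1 h array, -0.05 on the LPS 1 h array and 0.09 at 8 h, while the clone with an intensity of 0.17 had 1.22, 1.84 and 2.90. The gene was past 2-fold at 8 h through the dim clone, and mostly through its spot of 6.13. The taurine carrier SLC6A6 had -0.53 ± 0.08 on the LPS 1 h array, with all 3 spots negative, and 1.02 ± 0.71 at 4 h, from spots of 1.83, 0.51 and 0.72. The proton-coupled carrier SLC36A1 was past 2-fold at 4 h at -1.06 ± 3.33 through 1 spot at -4.82, while its other spots were positive and the median over spots was 0.14.

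The 8 carriers of sugars and nucleotide sugars had 3 positive and 0 negative members past 2-fold with E. coli at 1 h, against 14.7% and 1.51% of all genes. Their median was 0.58, or 0.14 without the trend. None was past 2-fold on the LPS 1 h or 8 h arrays, where 11.2% and 27.9% of all genes were. SLC37A2, a sugar phosphate exchanger of the endoplasmic reticulum that is abundant in macrophages, had spots of 1.89, 3.75 and 3.31 with E. coli at 1 h and a ratio of 2.98 ± 0.97, the largest of any member there. It had 1.81 ± 1.16 on the within-E. coli array and 1.33 ± 0.75 at 4 h, against 0.28 ± 0.32 on the LPS 1 h array and 0.43 ± 0.87 at 8 h. SLC35B2, which brings the sulphate donor PAPS into the Golgi, had 2.35 ± 0.38, 1.14 ± 0.27 and 1.53 ± 0.73 on those first 3 arrays, and its spots on the LPS 1 h array, -0.56, -0.72 and 1.08, disagreed in sign. SLC35F5 had 1.80 ± 1.78 on the E. coli 1 h array and 2.56 ± 3.08 on the within-E. coli array, the latter from spots of 6.08, 0.36 and 1.22.

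All 3 of these clones were dim, at percentiles 8.83, 4.75 and 6.84, and without the trend the E. coli 1 h ratios were 2.19 for SLC37A2, 1.54 for SLC35B2 and 0.98 for SLC35F5, while their 4 h ratios came to 0.21, 0.34 and -0.30. SLC2A6, a glucose transporter of the facilitative family found on lysosomes, had spots of -0.80, -0.67 and -0.54 with E. coli at 1 h and a ratio of -0.67 ± 0.13, against 0.10 ± 0.18 on the LPS 1 h array. SLC37A3 had -1.29 ± 1.23 at 4 h, from spots of -2.41, -1.48 and 0.03, and was within 0.30 of 0 on the other arrays. SLC35E3 had 0.67 ± 0.13 on the LPS 1 h array with 3 positive spots, and SLC35B4 and SLC45A4 had SDs near or above their ratios on most arrays.

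**Figure D4:**
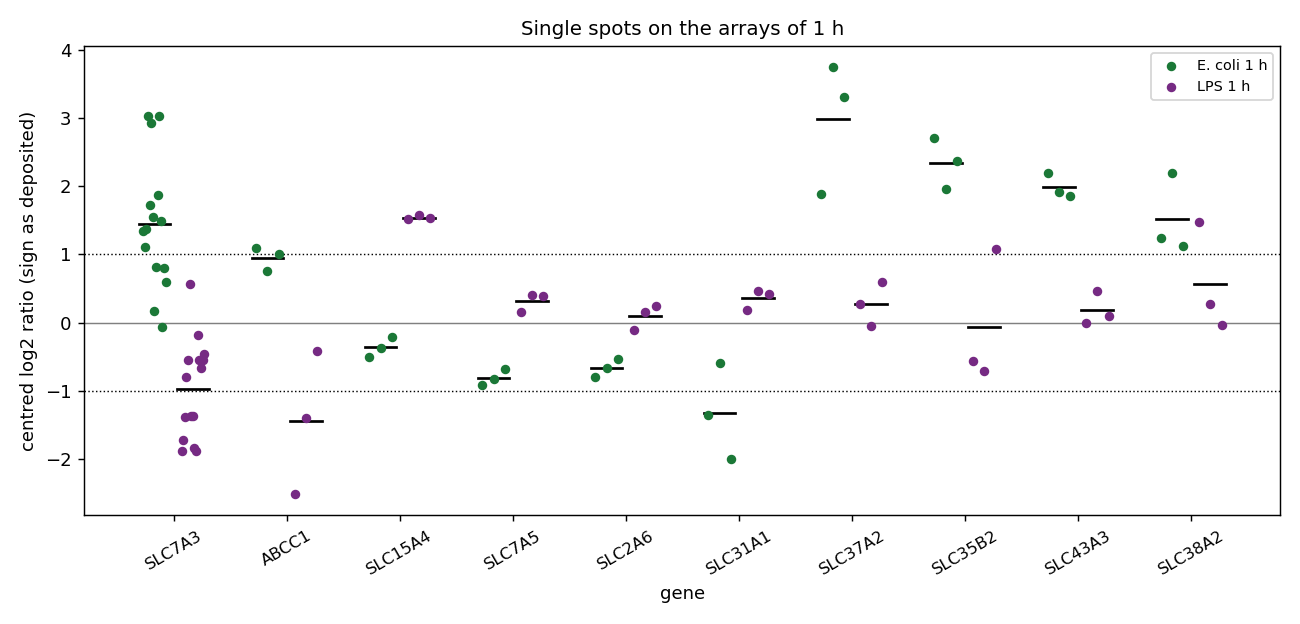
Single spots (points) and gene ratio (bar) as centred log2 ratio (y, sign as deposited) of 10 transporter genes (x) on the E. coli 1 h and LPS 1 h arrays. ABCC1 lies above 0 on the first and below 0 on the second array, SLC15A4 the other way. SLC7A3 has 14 of 15 spots above 0 on the first and 14 of 15 below 0 on the second, with a different spot as the exception. The dim genes SLC37A2, SLC35B2 and SLC43A3 have ratios of 2.98, 2.35 and 1.99 on the first and 0.28, -0.06 and 0.19 on the second.

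Of the 4 mitochondrial carriers, 1, SLC25A4, exceeded 2-fold with E. coli at 1 h, where 16.3% of all genes did. None of the 4 did so with LPS at 1 h, against 11.2% of all genes. SLC25A6, an ADP/ATP translocase, had 2 clones and 6 spots and was bright, with an LPS 2 h intensity of 2.78 ± 0.360. Its ratios were -0.05 ± 0.15 on the E. coli 1 h array, -0.10 ± 0.13 on the LPS 1 h array and 0.00 ± 0.26 on the within-E. coli array. At 4 h all 6 spots were negative and the ratio was -0.99 ± 0.51, just inside 2-fold, and at 8 h it was -0.28 ± 0.22. Its paralogue SLC25A4 had 1.01 ± 1.04 on the E. coli 1 h array and 1.49 ± 0.95 on the within-E. coli array, from a dimmer clone, and 0.66 and 1.07 without the trend. At 8 h it was past 2-fold at 1.08 ± 1.47, but its spots of 1.95, -0.62 and 1.91 disagreed in sign. cDNA clones of such paralogues can cross-hybridise, which leaves both genes' ratios uncertain.

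SLC25A3, the mitochondrial phosphate carrier, had -0.32 ± 0.31 and 0.13 ± 0.20 on the arrays of 1 h and 1.51 ± 1.15 on the within-E. coli array, with spots of 0.67, 1.03 and 2.82. At 4 h it had -1.27 ± 0.91 and at 8 h -1.06 ± 0.12, with spots of -1.13, -1.13 and -0.93, the smallest SD of the members past 2-fold there. Without the trend these were -0.93 and -0.88. SFXN1, the mitochondrial serine carrier, had 1.26 ± 0.41 over 2 spots at 4 h and -3.80 ± 2.88 over 2 spots at 8 h, -5.84 and -1.77. This was the largest negative ratio of any member, on a dim clone at percentile 15.6 of which 1 spot was not read. Without the trend the ratios were 0.53 and -4.47.

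Of the 5 metal carriers, the copper carriers SLC31A1 and SLC31A2 had opposite signs on the E. coli 1 h array. SLC31A1, the high-affinity copper importer of the plasma membrane, had spots of -1.36, -0.60 and -2.01 and a ratio of -1.32 ± 0.71, the only member negative past 2-fold there, where 1.51% of all genes were. SLC31A2, its endosomal relative, had 1.57, 2.05 and 0.98 and a ratio of 1.53 ± 0.53. Both were among the dimmest 25%, and without the trend the ratios were -1.64 and 0.96. On the LPS 1 h array SLC31A1 had 0.36 ± 0.15 and SLC31A2 -0.60 ± 0.27, each with all spots of 1 sign, opposite to that on the E. coli 1 h array. At 4 h they had -0.80 ± 0.30 and 1.81 ± 0.56, and again all spots of each gene shared the sign. On the within-E. coli array SLC31A1 had -2.05 on 1 spot, and the spots of SLC31A2 ran from -4.41 to 1.48.

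SLC40A1, ferroportin, the only known exporter of iron from the cell, had spots of -0.67, -0.71 and -0.30 with E. coli at 1 h and a ratio of -0.56 ± 0.22, against 0.00 ± 0.14 on the LPS 1 h array. At 4 h it had -1.63, -1.22 and -0.82, a ratio of -1.22 ± 0.40, and at 8 h -0.28 ± 0.12, so every spot on these was negative. It was a bright gene, at percentile 80.2, and the 4 h ratio was -0.76 without the trend. SLC48A1, which moves heme from endosomes and phagolysosomes to the cytosol, was positive on all 5 arrays and past 2-fold at 8 h, at 1.14 ± 0.61, or 1.32 without the trend. Its 4 h ratio of 0.93 ± 1.71 came from 1 spot of 2.90. The magnesium carrier SLC41A1 stayed within 0.38 of 0 on every array.

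The 3 ion carriers had gene ratios below 0 on the 4 h and 8 h arrays and above 0 on the within-E. coli array. Of all genes, 1118 of 2248 were below 0 at 4 h and 1102 of 2220 at 8 h. On the within-E. coli array 1179 of 2252 were above 0. Spots of SLC4A7 were of mixed sign at 4 h and on the within-E. coli array. Those of SLC8B1 were mixed at 8 h and on the within-E. coli array. SLC26A5, an anion exchanger relative known as prestin, the motor protein of hair cells in the ear, had spots of -2.30, -2.04 and -1.84 at 4 h and a ratio of -2.06 ± 0.23, the largest negative one of the members there, and -1.80 without the trend. It had -0.75 ± 0.13 on the E. coli 1 h array and 0.51 ± 0.13 on the LPS 1 h array, both with spots of 1 sign, and -1.14 ± 1.24 over 2 spots at 8 h. Its within-E. coli ratio of 1.26 ± 2.01 came from spots of -0.96, 2.95 and 1.80. SLC4A7, a sodium bicarbonate cotransporter that keeps cytosolic pH steady during phagosome acidification in human macrophages, had 3 clones and 9 spots. At 8 h 6 spots of 2 clones were read, from -1.97 over -1.21 to -0.92, and the ratio was -1.38 ± 0.46, or -1.33 without the trend. Elsewhere it was within 2-fold, from -0.28 ± 0.25 to 0.63 ± 0.69. The mitochondrial sodium calcium exchanger SLC8B1 was within 2-fold on all arrays, with 3 negative spots at 1 h of E. coli, -0.56 ± 0.13, and at 4 h, -0.49 ± 0.26.

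SLC15A4, the proton-coupled histidine and peptide carrier of endolysosomes that in mammals is needed for signals from endosomal toll-like receptors, had the most tightly read change of the LPS 1 h array among the members. Its spots were 1.52, 1.58 and 1.53, a ratio of 1.54 ± 0.03, where 3.78% of all genes were past 2-fold positive, and it was no smaller than 2-fold without the trend. With E. coli at 1 h it had -0.51, -0.38 and -0.21, a ratio of -0.36 ± 0.15. These signs were opposite to those of the early inflammatory genes on both arrays. On the within-E. coli array it had -0.91 ± 0.57 over 2 spots, and on the 4 h and 8 h arrays its spots disagreed in sign.

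Among carriers of nucleosides and organic ions, SLC29A1, the equilibrative nucleoside transporter, had -1.21 ± 0.62 at 4 h, with spots of -1.21, -1.82 and -0.59, and -0.77 without the trend. It had -0.57 ± 0.09 on the within-E. coli array and was within 0.21 of 0 elsewhere. SLCO2B1, an organic anion carrier, had 1.94 ± 1.43 on the within-E. coli array, from spots of 0.65, 1.69 and 3.48. At 8 h its spots were -3.93 and 2.36, which gives no usable ratio. SLCO4A1, a carrier of thyroid hormone in other species, had 0.87 ± 0.82 at 8 h and 0.58 ± 0.46 at 4 h, all spots positive and within 2-fold.

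The 4 ABC transporters all had gene ratios above 0 on the E. coli 1 h array, 2 of them past 2-fold, with a median of 1.02, or 0.99 without the trend. Of all 2251 genes 1114 were above 0 there and 14.7% past 2-fold positive. The ratio of ABCC13 on that array, 0.56 ± 1.04, had spots of mixed sign and was -0.05 without the trend. ABCC1, which exports glutathione conjugates and leukotriene C4, had spots of 1.09, 0.76 and 1.01 there and a ratio of 0.95 ± 0.17, or 1.16 without the trend. On the LPS 1 h array its spots were -2.52, -1.40 and -0.42, and its ratio of -1.45 ± 1.05 made it the member negative past 2-fold, where 7.37% of all genes were. Like SLC7A3, ABCC1 thus had the signs of the inflammatory genes on both arrays of 1 h, on a clone at percentile 72.6. At 4 h it had -0.71 ± 0.41, the opposite sign to those genes, and it lay at 0.05 ± 0.37 and 0.01 ± 0.31 on the remaining arrays.

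ABCC4, which exports cyclic nucleotides and prostaglandins, had 1.80 and 1.79 on 2 read spots of the E. coli 1 h array, a ratio of 1.79 ± 0.01, on a dim clone at percentile 17.8, and 1.41 without the trend. On the LPS 1 h array it had -0.35 ± 0.38 with all 3 spots negative, and its 4 h ratio of 1.08 ± 1.42 had spots of mixed sign. ABCA3, a phospholipid carrier of lamellar bodies in the lung, had 1.09 ± 0.35 on the E. coli 1 h array, with spots of 0.75, 1.06 and 1.45, and 0.81 without the trend. ABCC13, a gene whose human counterpart is a pseudogene, had 1.40 ± 0.90 on the within-E. coli array, or 0.84 without the trend, and disagreeing spots on both arrays of 1 h. The scaffold gene SLC9A3R1, with 6 spots, was within 0.57 of 0 on every array.

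The 4 h and 8 h arrays, each of E. coli against LPS, have no RNA sample in common. Across the 39 members Pearson's r between them was 0.25 and Spearman's rho 0.40, and 28 of 39 had the same sign on both. Over 2216 genes these were 0.40 and 0.44, with 1428 genes of the same sign, and genes are not independent and share the brightness trend. Past 2-fold on both were SLC25A3 and SLC26A5 with negative signs and SLC38A2 and SLC43A3 with positive signs. Without the trend SLC25A3 and SLC43A3 were within 2-fold on both arrays, and SLC38A2 was within it at 8 h. SFXN1 and SLC38A9 were also past it on both but changed sign, SLC38A9 on a single spot at 8 h. Of all genes 29.4% were past 2-fold at 4 h and 27.9% at 8 h, and the share past it on both was not counted. Macrophage markers lay on the negative side of both arrays, with 8 of 12 past 2-fold negative and medians of -1.07 and -1.11, where 11.7% and 12.9% of all genes were negative past 2-fold. Of these 12 markers 10 were brighter than the median gene, and the brightest 25% of genes had medians of -0.41 and -0.22 on the 4 h and 8 h arrays. CTSS had -2.35 ± 0.30 and -1.66 ± 0.18, and of the 2 T cell genes read CD3D had -2.70 ± 0.75 and -4.01 ± 0.76 and CD28 2.10 ± 2.49 and -0.49 ± 1.54. SLC40A1, SLC29A1, SLC25A3 and SLC26A5 had the sign of these markers at 4 h, and the part of cell content in their ratios was not tested.

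**Figure D5:**
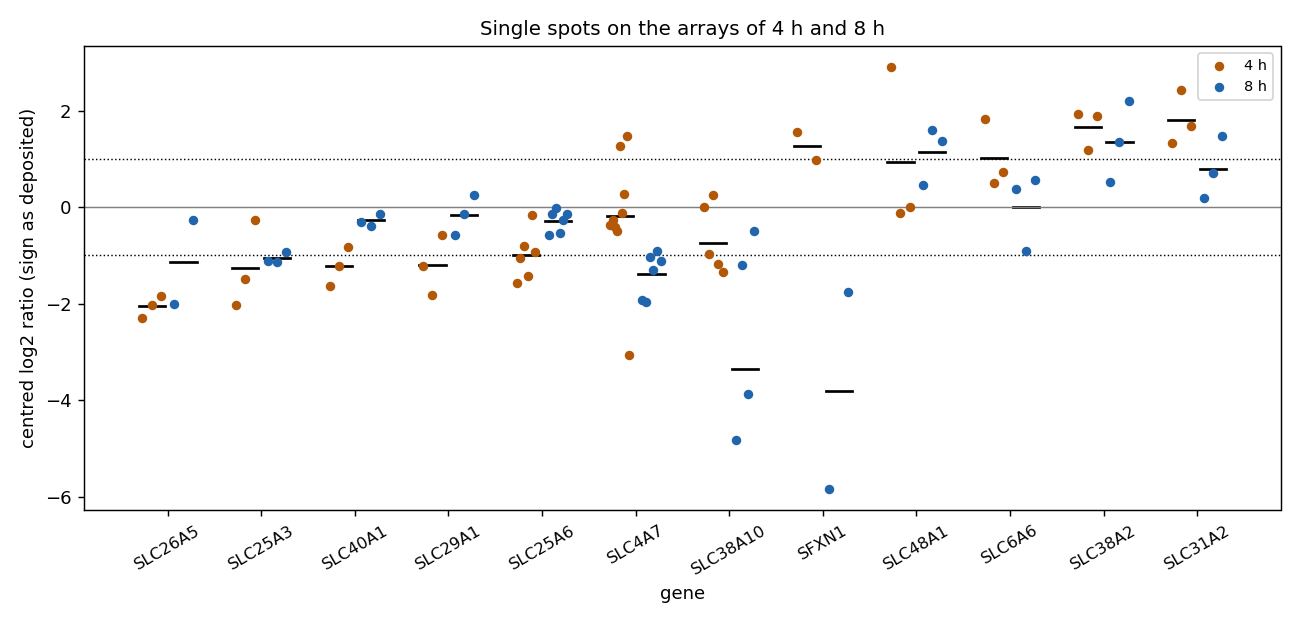
Single spots (points) and gene ratio (bar) as centred log2 ratio (y, sign as deposited) of 12 transporter genes (x) on the arrays of E. coli against LPS at 4 h and 8 h. All spots of SLC26A5, SLC25A3, SLC40A1 and SLC25A6 lie below 0 on both, and those of SLC38A2 and SLC31A2 above 0 on both. SFXN1 has 2 positive spots at 4 h and 2 negative spots at 8 h, which are not the same pair of spots.

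Genes that use or accompany the transported substrates were on the array in part. Of 13 genes of arginine and polyamine use 7 were read. On the E. coli 1 h array 2 of the 7 were past 2-fold positive and 0 negative, against 14.7% and 1.51% of all genes. On the LPS 1 h array 0 were positive and the same 2 genes were negative, against 3.78% and 7.37%. These were NOS2, which makes nitric oxide from arginine, at 1.85 ± 2.61 and -1.84 ± 1.99, and ARG2, which cleaves arginine to urea and ornithine, at 1.23 ± 0.03 and -1.64 ± 1.17, beside 1.45 and -0.98 for SLC7A3. Below 0 on the E. coli 1 h array were ASS1, which rebuilds arginine from citrulline, at -0.89 ± 0.08, the polyamine regulator OAZ1 at -0.75 ± 0.11 and AMD1, of polyamine synthesis, at -0.43 ± 0.18. Of 18 genes listed for glutathione, cystine and related redox defence 6 were read, GCLM, GCLC, TXNRD1, HMOX1, PRDX1 and TXN. With E. coli at 1 h, 2 of the 6 reached 2-fold positive and 0 negative, against 14.7% and 1.51% of all genes. With LPS at 1 h, 0 reached it positive and 2 negative, against 3.78% and 7.37%. Past 2-fold were GCLM and GCLC with E. coli and GCLM and TXNRD1 with LPS. The largest ratios were those of GCLM, a subunit of the first enzyme of glutathione synthesis, at 4.03 ± 0.19 and -5.78 ± 0.12. ABCC1 had 0.95 and -1.45 there. TXNRD1 shared these signs, at 0.71 and -1.07. GCLC had 1.11 and 0.37 and HMOX1 0.38 and 0.20, while PRDX1 had -0.67 and -0.06 and TXN -0.55 and -0.24. Of 13 iron and heme genes 5 were read, HMOX1 again among them. The iron store FTH1 had -0.73 ± 0.08 on the E. coli 1 h array and -1.26 ± 0.45 at 4 h, beside -0.56 and -1.22 for SLC40A1. That list had 2 positive and 2 negative genes past 2-fold at 4 h, where 17.7% and 11.7% of all genes were. On the E. coli 1 h and 4 h arrays TF was at -1.07 ± 0.14 and -1.63 ± 1.32. STEAP3 was at 1.45 ± 0.31 and 2.49 ± 0.44, and FBXL5 at -0.39 ± 0.11 and 1.34 ± 1.87. TAP2, an ABC transporter subunit for antigenic peptides that the choice by symbol leaves out, had -0.20 ± 0.28 and -0.08 ± 0.20 on the arrays of 1 h and -1.07 ± 0.56 on the within-E. coli array. Of 15 genes of amino acid sensing and stress 4 were read. On the LPS 1 h array 1 was past 2-fold positive and 1 negative, against 3.78% and 7.37% of all genes. These were EIF2AK4 at 2.17 ± 1.54, on 2 spots and with an LPS 2 h intensity of 0.045, and ATF4 at -1.37 ± 0.13. MTOR had 0.15 and LAMTOR3 0.10. Of 8 genes of glucose use 5 were read, with 0 positive and 1 negative past 2-fold there. That was PFKFB3 at -1.05 ± 0.12, while HIF1A had -0.54, LDHB -0.29, LDHA 0.29 and HK1 0.69.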

How the data were processed

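Total RNA of 6 arrays was analysed. The deposited table held 14718 spots. The 5 arrays with 2 channels hold the authors' ratios, read as log2 because they lie around 0. The deposited LPS 2 h column was read as linear intensity, with 204 spots below 0. The sources used here state no dyes, numerator, normalization, filters or logarithm base. Medians as deposited were 0.07 (E. coli 1 h), 0.29 (LPS 1 h), 0.49 (E. coli 2 h and 4 h), -0.11 (4 h) and 0.12 (8 h). Without centring every value shifts by the median of its array, so values at 4 h are lower and those on the other arrays higher. On the first array the label's title and its channel order name the samples in opposite orders.

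A probe table of 2007 named 9066 spots with 1 gene, 3 with several, and did not list 5649. Symbols were updated by gene identifier through RefSeq (GRCg7b), which matched 2228 of 2255. Spots were averaged within each of 4906 clones of 3 spots and clones within a gene. Past 2-fold means a centred log2 ratio of at least 1 in size. The brightness trend was the median ratio in 20 bins of spots by LPS 2 h intensity. The steps were tested on simulated data. Members, lists and alternatives were chosen with earlier results of these data known. Named were members past 2-fold with 2 or more spots of 1 sign, 3 of each group by mean size, and the 8 brightest. Members named beyond this were picked after their values were seen. The number of arrays limits the precision. Versions were matplotlib 3.10.9, scipy 1.17.1, pandas 2.3.3, numpy 2.4.6 and Python 3.11.15.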

Additional observations from a re-analysis of the deposited data

How the results depend on the processing

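With the dimmest 25% of genes left out, 25 transporters remained, and of these 4 (E. coli 1 h array), 5 (within-E. coli array), 9 (4 h array) and 7 (8 h array) exceeded 2-fold, against 8.11%, 17.8%, 23.8% and 23% of all genes left. On the E. coli 1 h array 9 of the 14 members left out, or 64.3%, had been past it, against 40.7% of all genes left out. With the brightness trend removed, 10 were past 2-fold at 4 h, 4 positive and 6 negative, of which 5 were among the original 16, against 21.8% of all genes. The within-E. coli array then had 7 positive and 3 negative and the 8 h array 2 and 6. Without centring there were 4 on the LPS 1 h array, 3 positive and 1 negative (12.6% of all genes), and the 4 h array had 7 positive and 10 negative. With the arrays scaled to 1 spread there were 10 on the LPS 1 h array, 7 positive and 3 negative, where 24.4% of all genes were past 2-fold, 7 at 4 h, 5 positive and 2 negative, against 18%, and 7 at 8 h against 20.9%. Under a natural logarithm there were 5 on the LPS 1 h array against 18.3%, 25 at 4 h against 45.2% and 17 at 8 h against 43.2%. With all of at least 3 spots required to share a sign, 12 members could be counted at 8 h and 6 were past 2-fold, against 44.1% of such genes. The other counts stayed within 1.5 times the original. Of 51 ratios past 2-fold of the genes named by rule, 27 stayed past it without the trend, 48 without centring, 38 after scaling and 45 as a median over spots, under which SLC7A6 on the E. coli 1 h array turned to -0.29 and SLC36A1, not among the 51, turned to 0.14 at 4 h. No paired analysis was possible because each comparison has 1 array. The number of arrays limits precision, and the dimmest member, SLC38A9, had an intensity of 0.0609.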

Other observations

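The 3 spots of a clone lie in 3 blocks of the array, and the blocks differed in level on every ratio array. After centring, the medians of the first, middle and last block were -0.08, -0.01 and 0.09 on the E. coli 1 h array, -0.12, 0.00 and 0.12 on the LPS 1 h array and -0.12, -0.02 and 0.15 on the within-E. coli array. They were -0.28, -0.09 and 0.30 at 4 h and -0.35, -0.02 and 0.39 at 8 h. With each block centred apart, an alternative chosen after seeing the data, the same transporters were past 2-fold on all 5 arrays, 13, 2, 12, 16 and 11.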
